A study of Mus musculus with 8 samples.

Results

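The genes described here are a set of secreted proteins of the acute phase and of the complement system: Saa3, Lcn2, Ptx3, Hp, C3, Cfb and Serping1. They were chosen by symbol in the array's annotation, taking for each gene the probe set with the highest mean over the 8 arrays among those with 1 symbol. Of the 7 genes listed, 6 were measured among 19938 genes in all. Each of the 6 had 1 probe set, so that the highest mean decided nothing. C3 was not matched to a probe set and is not analysed here. The symbols were picked with earlier results of these arrays known, Saa3 among the genes with the lowest values, so the differences given below are descriptions of these genes and no independent evidence for them.

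The samples were mouse embryonic fibroblasts of Daxx knockout genotype and FVB/N background. All groups share the knockout. DaxxA (2 arrays) and DaxxB (2 arrays) had been complemented with Daxx, and the vector group (4 arrays) had been complemented with a vector. The labels leave the meaning of A and B unstated, and they do not tell whether cells were pooled or of 1 clone, or what drove the Daxx that was put back. Nothing in them says that the arrays of a group stem from separate cultures. The p-values then reflect only how far these samples vary, and that variation may be technical. The study sought genes regulated downstream of Daxx, a histone chaperone and transcriptional regulator.

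The acute phase is the rapid change in secreted proteins that follows injury or infection. Interleukin 1 and tumour necrosis factor act on it through NF-kB, and interleukin 6 and its relatives act through the gp130 receptor chain, STAT3 and C/EBP factors. The liver is the main source of these proteins, but Saa3, Lcn2 and Ptx3 are also made by stromal cells and macrophages. Complement is a cascade of plasma proteins, several of them proteases, whose pathways meet in the cleavage of C3. It starts from C1r and C1s in the classical pathway, from the MASP proteases in the lectin pathway, or through factor B in the alternative pathway.

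The 250 bases before the annotated start of the 3 measured genes whose signal lay well above background are shown because C/EBP and NF-kB factors are known to act at acute phase promoters. They come from RefSeq (GRCm38.p6), which held 4 of the 7 genes. Capitals mark every match on either strand to TTNNGNAA (C/EBP) or to GGG and CC with 5 bases of any kind between them (NF-kB). The pieces lie at chr7:46715677-46715926 on the minus strand (Saa3), chr2:32387740-32387989 on the minus strand (Lcn2) and chr3:66219637-66219886 on the plus strand (Ptx3).
Saa3: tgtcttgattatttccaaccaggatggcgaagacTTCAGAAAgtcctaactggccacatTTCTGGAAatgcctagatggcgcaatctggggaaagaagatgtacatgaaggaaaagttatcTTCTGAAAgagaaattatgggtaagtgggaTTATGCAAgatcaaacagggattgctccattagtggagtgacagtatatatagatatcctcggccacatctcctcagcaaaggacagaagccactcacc
Lcn2: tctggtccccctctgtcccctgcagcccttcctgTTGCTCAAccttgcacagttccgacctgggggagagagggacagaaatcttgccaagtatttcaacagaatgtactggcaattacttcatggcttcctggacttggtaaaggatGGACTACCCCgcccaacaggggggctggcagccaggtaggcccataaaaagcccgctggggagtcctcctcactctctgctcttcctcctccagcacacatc
Ptx3: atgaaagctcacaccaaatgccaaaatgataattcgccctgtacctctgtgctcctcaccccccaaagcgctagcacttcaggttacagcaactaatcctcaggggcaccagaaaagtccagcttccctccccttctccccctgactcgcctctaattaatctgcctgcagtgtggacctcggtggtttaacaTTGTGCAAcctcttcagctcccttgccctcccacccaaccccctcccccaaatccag
The C/EBP letters occurred 4 times before Saa3, 1 time before Lcn2 and 1 time before Ptx3. They occurred at least 1 time in 36.8% of 32851 RefSeq windows of this length and at least 4 times in 0.801%. The NF-kB letters occurred 1 time before Lcn2 and 0 times in the other pieces, against 45.8% of all windows with a match. The STAT letters TTCNNNGAA and the TATA letters TATAAA, which 7.02% and 12.4% of all windows hold, had 0 matches in the 3 pieces. No match of 1 motif overlapped a match of another. The motifs were settled with the sequences in view, and a match of letters is not a binding site.

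Values are log2 signals, in which 1 unit is 2-fold, and a difference, unless stated otherwise, is the Daxx mean less the vector mean, with its standard error (SE). A gene was called at an adjusted p below 0.05 in limma, with Benjamini-Hochberg adjustment over all 19938 genes. Vector replicate 2 stood apart from the other arrays: its interquartile range was 2.79, against 3.31 to 3.39 in the other 7 arrays, and its median over 1027 olfactory receptor genes was 5.21, against 4.65 to 4.70. Results are therefore also given on 7 arrays without it. The Daxx probe set itself averaged 7.35 ± 0.0964 in the Daxx arrays and 7.15 ± 0.216 in the vector arrays (SD, n = 4 each) (limma adjusted p = 0.46). Whether its probes fall inside the deleted stretch or match the Daxx put back is unknown here, so it checks nothing. Directions therefore rest on the labels. Of 15 fibroblast markers, all but Lum, 14 in number, averaged above 6.07, the 95th percentile of the olfactory receptor genes and a guide to background.

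Among the acute phase genes, Saa3 and Ptx3 fell in the arrays labelled Daxx and Lcn2 was lower without passing the test on 8 arrays, while Hp, Cfb and Serping1 gave small differences at dim signal. Thus 2 of the 6 genes were called, both lower, where 2.73% of all genes were called lower. On 7 arrays 3 of the 6 were called lower, where 7.57% of all genes were. The median difference of the 6 genes was -0.31, and that of all genes was -0.028.

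Saa3 encodes serum amyloid A3, an acute phase apolipoprotein that in mice is made largely outside the liver. It read 7.13 and 7.20 in the DaxxA arrays and 7.62 and 7.36 in the DaxxB arrays, against 9.10, 8.70, 9.16 and 9.03 in the vector arrays. All 4 Daxx values lay below the lowest vector value, as they did for 6.79% of all genes. Saa3 averaged 7.33 ± 0.219 in Daxx arrays and 9.0 ± 0.206 in vector arrays (SD, n = 4 each), a difference of -1.67 (SE 0.132, 3.18-fold lower, limma adjusted p = 0.000197). It ranked 5 of 19938 genes from the lowest difference. On 7 arrays the difference was -1.77 (limma adjusted p = 1.5e-06).

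Ptx3 encodes the long pentraxin 3, a soluble pattern recognition protein that binds C1q and factor H. Its signal was 7.69 and 7.89 in the DaxxA arrays and 7.68 and 7.90 in the DaxxB arrays, against 8.56, 8.53, 8.55 and 8.65 in the vector arrays. The groups did not overlap, with Daxx lower, as for 6.79% of all genes, and vector replicate 2 lay close to the other vector arrays. The difference was -0.79 (SE 0.0709, 1.72-fold lower, limma adjusted p = 0.000434), and -0.80 on 7 arrays (limma adjusted p = 2.5e-05).

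Lcn2 encodes lipocalin 2, which binds bacterial siderophores and so withholds iron. It read 9.44 and 9.72 in the DaxxA arrays and 9.83 and 9.91 in the DaxxB arrays, against 10.48, 9.92, 10.43 and 10.39 in the vector arrays. The groups were separated only narrowly, because vector replicate 2 read 9.92, close to the highest DaxxB value, while the other vector arrays read 10.39 or more. The difference of -0.58 (SE 0.144, 1.49-fold lower, 95% interval -0.91 to -0.25) missed the threshold on 8 arrays (limma adjusted p = 0.061). Without vector replicate 2 it was -0.71 and passed (limma adjusted p = 0.000643). With all 8 arrays kept, Lcn2 also passed with a filter on dim genes (limma adjusted p = 0.0309), after quantile normalization (limma adjusted p = 0.0267), with a trended and robust prior (limma adjusted p = 0.0318) and with array weights (limma adjusted p = 7.95e-05). The mean over probe sets could not change its values, because Lcn2 has 1 probe set (limma adjusted p = 0.0611). It did not pass with equal array medians (limma adjusted p = 0.0843). Nor did it pass with the replicate number as a block (limma adjusted p = 0.285), or with any 1 array other than vector replicate 2 left out. In the block fit the vector side rests on vector replicates 1 and 2 alone, so vector replicate 2 weighs more there than in the main fit.

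**Figure D1:**
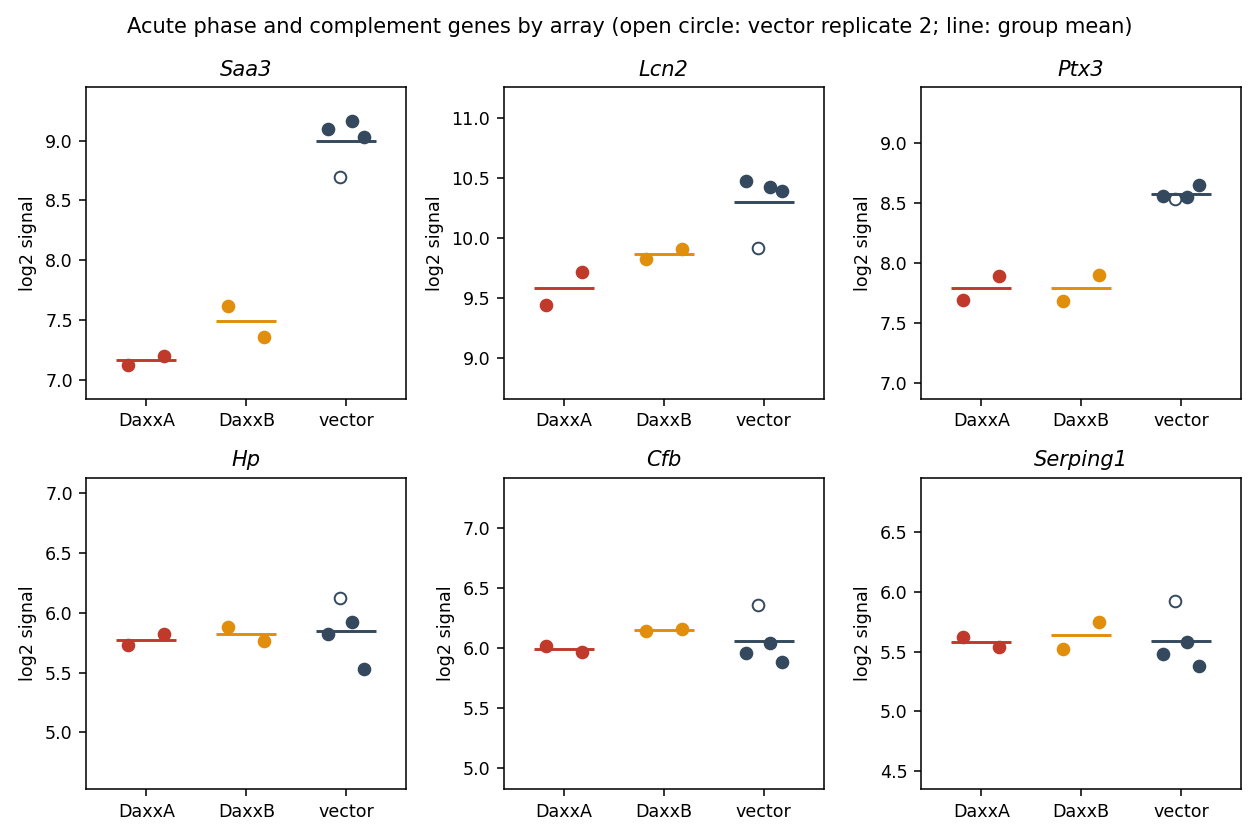
Log2 signal of the 6 measured genes in each array, by group (DaxxA, DaxxB, vector), with 1 point per array, a line at each group mean, an open circle for vector replicate 2 and axes of equal span. For Saa3, Lcn2 and Ptx3 all Daxx points lie below all vector points, as they do for 6.79% of all genes. For Hp, Cfb and Serping1 the groups overlap with vector replicate 2 highest.

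Hp encodes haptoglobin, which binds free haemoglobin in plasma. It read 5.73 and 5.82 in the DaxxA arrays and 5.88 and 5.76 in the DaxxB arrays, against 5.82, 6.12, 5.92 and 5.53 in the vector arrays. The groups overlapped, and the difference was -0.05 (95% interval -0.31 to 0.21, limma adjusted p = 0.852). On 7 arrays its sign turned, to 0.04 (limma adjusted p = 0.81).

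Of the complement genes on the list, Cfb encodes factor B, the protease of the alternative pathway convertase. Its signal was 6.02 and 5.97 in the DaxxA arrays and 6.14 and 6.16 in the DaxxB arrays, against 5.96, 6.36, 6.04 and 5.88 in the vector arrays. The groups overlapped, with vector replicate 2 above every other array. The difference was 0.01 (95% interval -0.22 to 0.25, limma adjusted p = 0.958), and 0.11 on 7 arrays (limma adjusted p = 0.288).

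Serping1 encodes the C1 inhibitor, a serpin that inactivates C1r, C1s and the MASP proteases. It read 5.62 and 5.54 in the DaxxA arrays and 5.52 and 5.75 in the DaxxB arrays, against 5.48, 5.92, 5.58 and 5.38 in the vector arrays. The groups again overlapped with vector replicate 2 the highest array. The difference was 0.02 (95% interval -0.24 to 0.28, limma adjusted p = 0.946), and 0.13 on 7 arrays (limma adjusted p = 0.257).

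The signal of Hp, Cfb and Serping1 was close to background. Their means over the 8 arrays lay above 91.8% (Hp), 94.8% (Cfb) and 89.1% (Serping1) of the olfactory receptor genes, and those of Saa3, Ptx3 and Lcn2 above 99.9% or more. Differences of dim probe sets are compressed by the RMA method, so the intervals of Hp, Cfb and Serping1 bound the measured signal and not the RNA. Vector replicate 2 gave the highest vector value of each of these 3 dim genes, and the lowest vector value of each of the 3 brighter ones.

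DaxxA and DaxxB share the vector arrays, and each gave 2 genes called on 8 arrays, both times Saa3 and Ptx3 and both lower, where 1.45% (DaxxA) and 1.92% (DaxxB) of all genes were called lower. Saa3 differed from vector by -1.83 in DaxxA (SE 0.139, limma adjusted p = 0.000997) and by -1.51 in DaxxB (SE 0.139, limma adjusted p = 0.00222). Ptx3 differed by -0.79 in DaxxA (limma adjusted p = 0.00669) and by -0.79 in DaxxB (limma adjusted p = 0.00637). The Ptx3 difference in DaxxA was -0.68 without DaxxA replicate 1 and -0.89 without DaxxA replicate 2. In DaxxB it was -0.68 without DaxxB replicate 1 and -0.90 without DaxxB replicate 2. Each of these fits leaves 1 array in the Daxx group compared, so only the size of the difference is given.

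Lcn2 differed by -0.72 in DaxxA and by -0.44 in DaxxB, and neither passed (limma adjusted p = 0.104 for DaxxA and 0.28 for DaxxB). On 7 arrays Lcn2 passed in both (limma adjusted p = 3.37e-05 for DaxxA and 0.000558 for DaxxB), which made 3 genes called lower in each, where 6.8% (DaxxA) and 9.53% (DaxxB) of all genes were. There Cfb was called higher in DaxxB (0.19, limma adjusted p = 0.0345), where 10.9% of all genes were called higher, and not in DaxxA (0.03, limma adjusted p = 0.786).

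Set against each other directly, DaxxA and DaxxB differed in 0 of the 6 genes in limma, and 0 had an unadjusted p below 0.05. Among all genes 0% were called. Saa3 was lower in DaxxA, 7.16 ± 0.0546, than in DaxxB, 7.49 ± 0.183 (SD, n = 2 each), by -0.33 (95% interval -0.70 to 0.05, limma adjusted p = 1). For Lcn2 the DaxxA minus DaxxB difference was -0.29 (95% interval -0.74 to 0.16), and for Ptx3 it was 0.00 (95% interval -0.24 to 0.25). Both DaxxA values of Saa3, Lcn2 and Cfb lay below both DaxxB values, a separation in that direction that 35.9% of all genes had. On 7 arrays, where 2.15% of all genes were called, again 0 of the 6 passed in limma while 3 had an unadjusted p below 0.05, and the adjusted p was 0.0644 for Saa3 and 0.0888 for Lcn2.

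**Figure D2:**
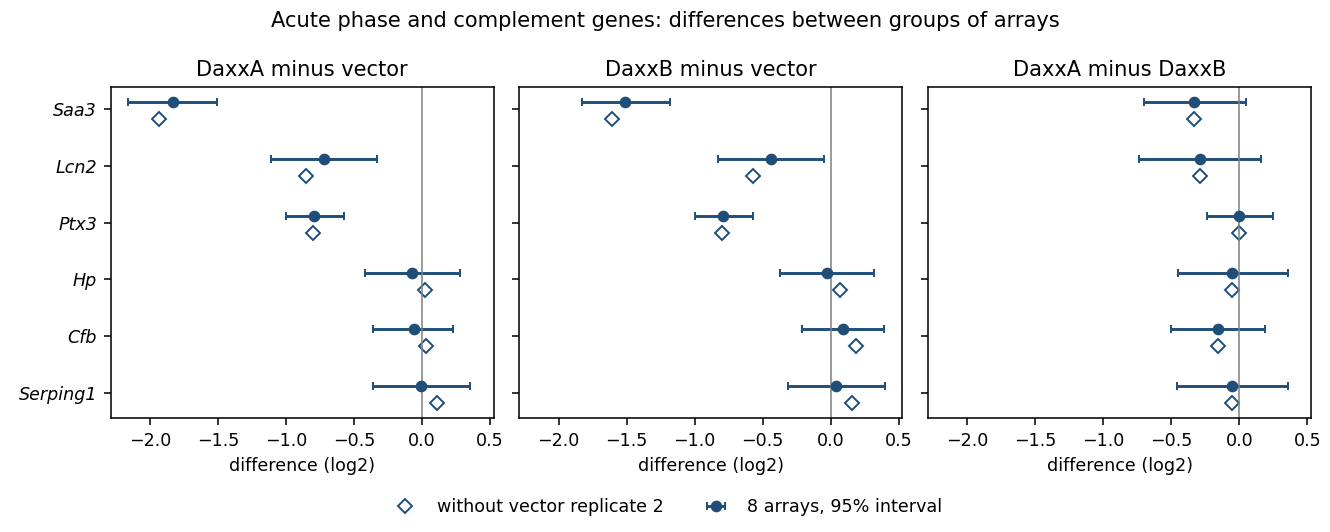
Difference in log2 signal for each of the 6 genes in DaxxA minus vector, DaxxB minus vector and DaxxA minus DaxxB, with filled circles and 95% intervals for the fit on 8 arrays and open diamonds for the fit without vector replicate 2. The intervals of Saa3 and Ptx3 lie below 0 in both comparisons with vector, and every interval of DaxxA minus DaxxB includes 0.

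Around these genes, further acute phase genes that are mostly products of the liver gave small differences in the main. Many of them averaged below the background guide of 6.07, among them Orm2, Fga and Hamp. Their differences bound the measured signal and not the RNA. Of 26 measured genes 2 fell, 0 rose and 24 did not pass (7.69% called, against 4.52% of all genes), and their median was -0.07. Cp, the copper-carrying ferroxidase ceruloplasmin, read 7.71 and 7.70 in DaxxA and 7.65 and 7.60 in DaxxB, against 8.49, 8.43, 8.52 and 8.55 in vector arrays, and fell 1.78-fold (SE 0.0527 on the log2 scale, limma adjusted p = 5.28e-05). The 4 vector values of Cp lay within a narrow band that no Daxx array reached. The groups did not overlap, with Daxx lower, for 6.79% of all genes. Mt2, a metal-binding metallothionein, fell 1.28-fold (limma adjusted p = 0.00933). On 7 arrays 4 genes of this list were called lower and 1 higher, where 12.8% of all genes were called. The higher one was Il1rn (0.41, limma adjusted p = 0.000475).

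The relatives of the chosen genes did not pass. Saa1, Saa2 and Saa4, the other serum amyloid genes, differed by 0.00, -0.29 and -0.07, all 3 at means below 6.07. The short pentraxins Crp and Apcs, also at means below 6.07, differed by -0.16 and -0.22, and Hpx, the heme carrier hemopexin, by 0.00. In the RefSeq order of protein-coding genes (GRCm38.p6) Saal1 and Saa4 flank Saa3, and Saal1 differed by -0.04 (limma adjusted p = 0.826). Over the nearest 2 such genes on each side of the 6 genes, 24 in all, 1 rose and 1 fell, where 4.52% of all genes were called. These were Clp1, an RNA kinase gene near Serping1 (0.24, limma adjusted p = 0.048), and Shox2, a homeobox gene next to Ptx3 (-0.94, limma adjusted p = 0.000156). On 7 arrays, where 12.8% of all genes were called, both passed again. The genes flanking Lcn2 were then called higher, 1110008P14Rik (0.27, limma adjusted p = 0.00451) and Ptges2 (0.24, limma adjusted p = 0.045). Rsrc1 near Ptx3 (-0.28, limma adjusted p = 0.0392) and Ube2l6 next to Serping1 (-0.23, limma adjusted p = 0.045) were called lower. All these neighbours were named after their values were seen.

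Of 26 measured complement components 3 fell and 1 rose, and the other 22 missed the threshold (15.4% called, against 4.52% of all genes, median -0.11). C1s1, which encodes the protease C1s, a target of the C1 inhibitor, read 8.09 and 8.20 in DaxxA and 8.11 and 7.97 in DaxxB, against 9.04, 8.72, 9.02 and 9.10 in vector arrays. The groups did not overlap, with Daxx lower, as for 6.79% of all genes, and the difference was -0.88 (SE 0.0925, limma adjusted p = 0.001). Its partner C1ra, encoding C1r, averaged 6.56 in Daxx arrays and 6.95 in vector arrays and did not pass on 8 arrays (-0.39, limma adjusted p = 0.327), but did on 7 (-0.58, limma adjusted p = 0.000499).

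In the lectin pathway, Masp1, a protease of that pathway, read 8.76 and 8.69 in DaxxA and 8.87 and 8.90 in DaxxB, against 9.63, 9.55, 9.67 and 9.60 in vector arrays. Its difference was -0.81 (SE 0.0629, limma adjusted p = 0.000182). Colec12, a scavenger receptor of the collectin family, fell by 0.57 on the log2 scale (limma adjusted p = 0.000479). Fcnb, a ficolin, rose by 0.23 with an adjusted p of 0.0496 in limma, a call that held in 1 of 8 fits that each left out 1 array. C2, C4a, C4b and Hc, which encode the following components up to C5, differed by -0.09, -0.01, -0.12 and -0.19, and none of these passed. C2, C4b and Hc averaged below 6.07 in both groups and C4a just above it. Their differences bound the measured signal and not the RNA.

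Among 20 measured regulators and receptors of complement 1 fell, 0 rose and 19 did not pass (5% called, near the 4.52% of all genes, median -0.06). The one was Cd59a, an inhibitor of the membrane attack complex, with 6.18 and 6.07 in DaxxA and 6.14 and 5.83 in DaxxB, against 6.92, 6.83, 6.97 and 6.84 in vector arrays (-0.84, SE 0.0827, limma adjusted p = 0.000697). Its mean was 6.06 in Daxx arrays, just below the background guide of 6.07, and 6.89 in vector arrays, so the size of the difference is that of the measured signal and not of the RNA. Its paralog Cd59b averaged 4.82 in Daxx arrays and 5.03 in vector arrays, both below 6.07, and did not pass.

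**Figure D3:**
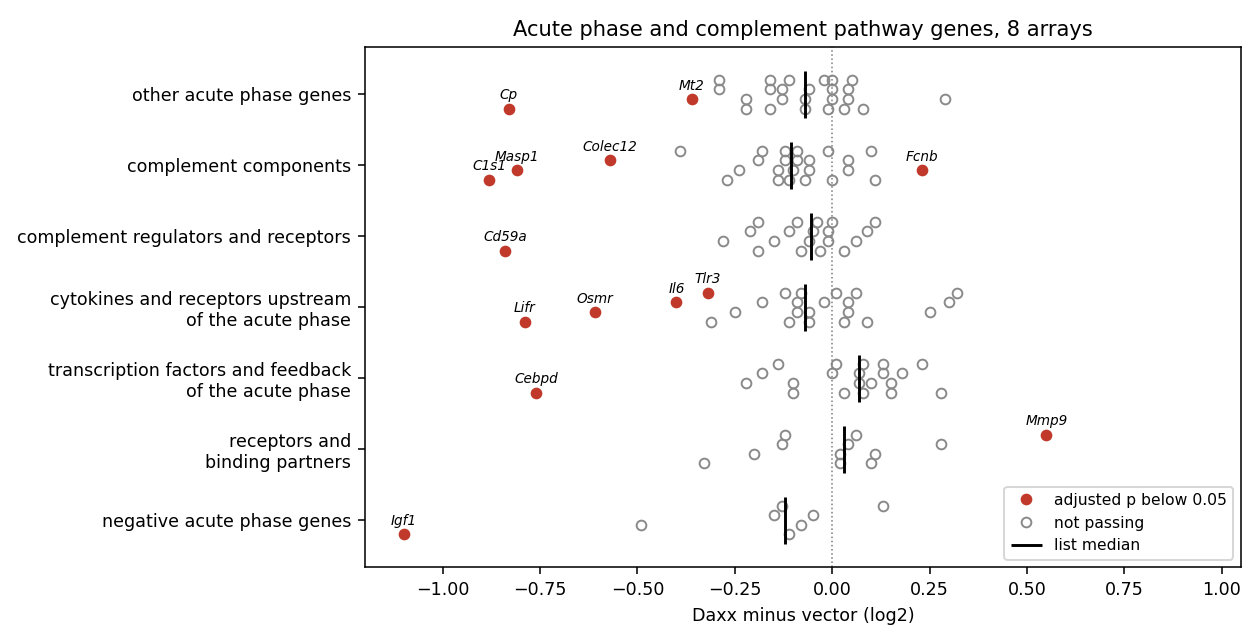
Daxx minus vector difference in log2 signal on 8 arrays for each measured gene of the 7 pathway lists, with filled points for genes at an adjusted p below 0.05, open points for the others and a bar at each list's median. Named genes lie mostly left of 0, among them Igf1 at -1.10 and C1s1 at -0.88, while the list medians run between -0.12 and 0.07.

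Upstream of the acute phase, 4 of 24 cytokine and receptor genes fell and 0 rose, with 20 missing the threshold (16.7% called, against 4.52% of all genes, median -0.07). Osmr, the receptor chain for oncostatin M, read 10.43 and 10.46 in DaxxA and 10.40 and 10.43 in DaxxB, against 11.08, 10.87, 11.11 and 11.10 in vector arrays (-0.61, SE 0.0646, limma adjusted p = 0.00104). Lifr, the receptor chain for leukaemia inhibitory factor, read 7.96 and 7.99 in DaxxA and 8.05 and 7.84 in DaxxB, against 8.88, 8.35, 8.91 and 8.86 in vector arrays (-0.79, SE 0.126, limma adjusted p = 0.00895). In both receptor genes the groups did not overlap, with Daxx lower, as for 6.79% of all genes, and vector replicate 2 was the lowest vector array. Il6st, the gp130 chain they share, differed by -0.25 and did not pass on 8 arrays (limma adjusted p = 0.109), but did on 7 (-0.31, limma adjusted p = 0.0021).

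Il6, the cytokine that gives the family its name, averaged 4.75 in Daxx arrays and 5.14 in vector arrays, both below 6.07, and fell by 0.40 on the log2 scale (limma adjusted p = 0.00852). Tlr3, a receptor for double-stranded RNA, fell by 0.32 (limma adjusted p = 0.0164), a call that held in 3 of 8 fits that each left out 1 array. The cytokine genes Il1a, Il1b and Tnf differed by -0.12, -0.31 and 0.01, and none of them passed. Il1a and Il1b averaged below 6.07 in both groups. Without vector replicate 2 the list had 6 genes called lower and 2 higher, where 12.8% of all genes were called. The higher ones were Lif (0.38, limma adjusted p = 0.00264) and Il17rc (0.16, limma adjusted p = 0.0416).

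Transcription factors and feedback genes of the acute phase included 1 of 21 that fell and 0 that rose, with 20 missing the threshold (4.76% called, near the 4.52% of all genes, median 0.07). Cebpd, a C/EBP factor induced in the acute phase, read 6.75 and 6.64 in DaxxA and 6.69 and 6.69 in DaxxB, against 7.42, 7.30, 7.54 and 7.57 in vector arrays. The groups did not overlap, with Daxx lower, as for 6.79% of all genes, and the difference was -0.76 (SE 0.0697, limma adjusted p = 0.000466). Its relatives Cebpa, Cebpb and Cebpg differed by 0.00, 0.07 and 0.13 and did not pass. The NF-kB subunit Rela and the NF-kB inhibitor Nfkbia differed by 0.15 each, and Stat3 and its feedback gene Socs3 by -0.22 and -0.18, all without passing on 8 arrays. Stat3 passed on 7 arrays (-0.27, limma adjusted p = 0.00348). There the list had 3 genes called lower and 2 higher, where 12.8% of all genes were called. The higher ones were Tnfaip3 (0.17, limma adjusted p = 0.0197) and Nfkbie (0.16, limma adjusted p = 0.0358).

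**Figure D4:**
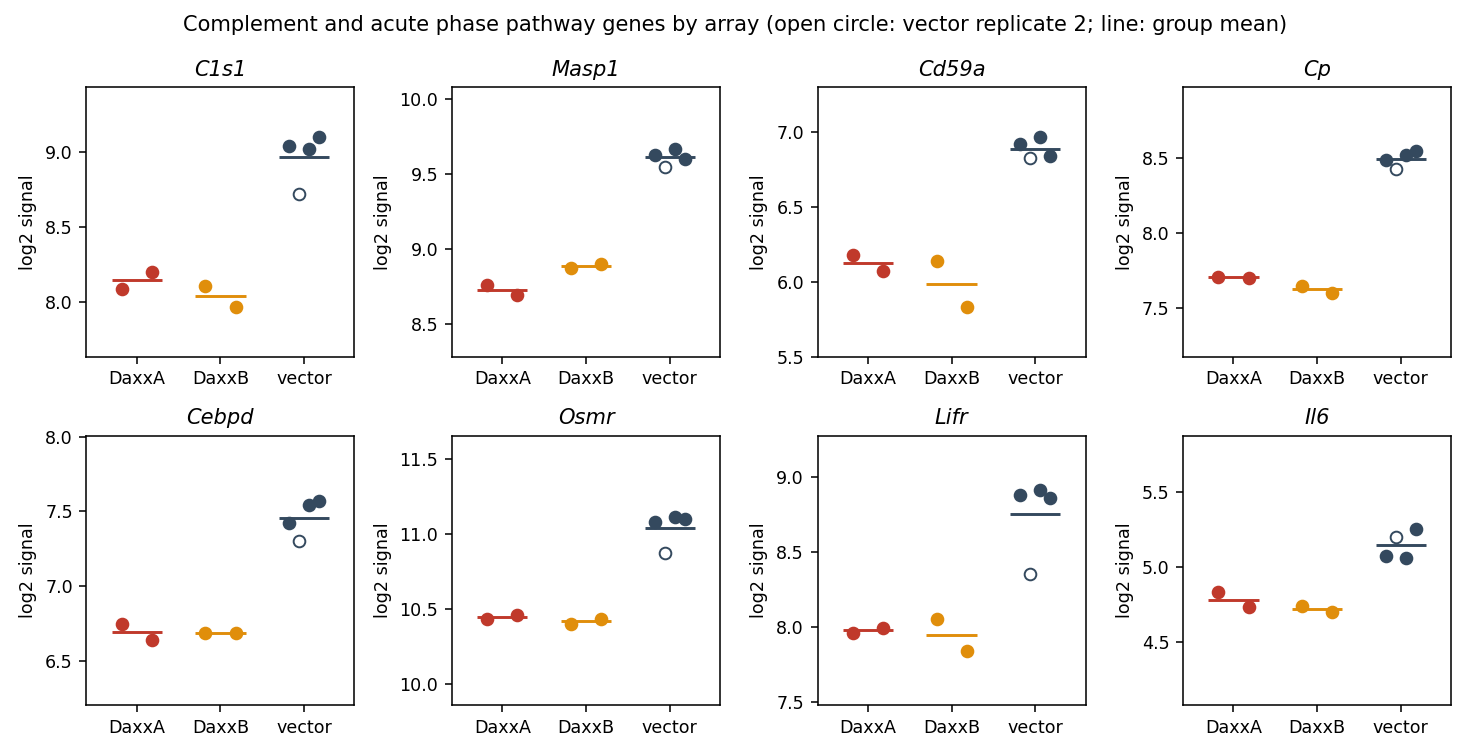
Log2 signal by array of 8 pathway genes that were called lower, by group (DaxxA, DaxxB, vector), with 1 point per array, a line at each group mean, an open circle for vector replicate 2 and axes of equal span. All Daxx points lie below all vector points in each gene, as they do for 6.79% of all genes. The genes were picked from those called lower, so this separation is no further evidence. Vector replicate 2 is lower than the other vector arrays most clearly for Lifr and C1s1.

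Receptors and binding partners of the chosen proteins included 1 of 12 that rose and 0 that fell, with 11 missing the threshold (8.33% called, against 4.52% of all genes, median 0.03). Mmp9, a gelatinase that lipocalin 2 binds, averaged 9.17 in Daxx arrays and 8.63 in vector arrays (0.55, limma adjusted p = 0.0422). Its call held in 1 of 8 fits that each left out 1 array. On 7 arrays 2 genes of this list were called higher, Mmp9 and Hmox1 (0.17, limma adjusted p = 0.0184), and 0 lower. There 12.8% of all genes were called. Slc22a17, a receptor for lipocalin 2, differed by -0.33 and did not pass. Against vector it was called lower in DaxxA (-0.48, limma adjusted p = 0.0391), where 1.45% of all genes were. In DaxxB it did not pass (-0.19, limma adjusted p = 0.39). Genes that fall in the liver during the acute phase included 1 of 8 that fell and 0 that rose, with 7 missing the threshold (12.5% called, against 4.52% of all genes, median -0.12): Igf1, a growth factor also made by fibroblasts, read 7.76 and 7.66 in DaxxA and 7.60 and 7.58 in DaxxB, against 8.73, 8.75, 8.65 and 8.85 in vector arrays (-1.10, SE 0.0649, limma adjusted p = 3.98e-05).

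The genes whose pattern over the 8 arrays was most like that of Saa3, by Pearson's r, were Lgals3bp, a secreted binding protein of galectin 3 (r = 0.996), Timp3, a metalloproteinase inhibitor (r = 0.995), Dcn, the proteoglycan decorin (r = 0.994), Nsg1, an endosomal protein (r = 0.994), and Pdgfrb, a growth factor receptor (r = 0.993). These 5 genes differed by -0.74, -0.53, -1.47, -1.18 and -0.70. The Daxx and vector values of Saa3 did not overlap, and r was computed over both groups together. Dcn and Pdgfrb are also among the fibroblast markers. Plag1 and Dab2 were most like Ptx3 (r = 0.985 each), and Lrrc8e and Copz2 were most like Lcn2 (r = 0.974 and 0.973). For Cfb they were Fmo4 and Sprr1b (r = 0.99 and 0.988), for Serping1 Sox10 and Tbx19 (r = 0.984 and 0.979) and for Hp Slc22a20 and Rgs7bp (r = 0.965 and 0.964), whose own differences lay between -0.04 and 0.03.

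Markers of cells that also make these proteins were examined beside them. Of 14 macrophage and monocyte markers 4 lay above 6.07 (Cd68, Tyrobp, Fcer1g and Cd14), 0 were called in limma on 8 or on 7 arrays, and the list mean was 5.52 to 5.63 in Daxx arrays and 5.52 to 5.55 in vector arrays other than vector replicate 2, which read 5.93. The defining genes Ptprc, Adgre1 and Csf1r were not above 6.07. Of 10 neutrophil markers only Camp was above it, and the list mean was 5.31 to 5.4 in Daxx arrays and 5.33 to 5.35 in vector arrays other than replicate 2 (5.58). Of 10 hepatocyte markers 3 were above it (Apoa1, Apob and Hnf4a) and Alb was not, with a list mean of 5.66 to 5.72 in Daxx arrays and 5.68 to 5.69 in vector arrays other than replicate 2 (6.08). Lymphocyte, epithelial, endothelial and adipocyte markers had 1 of 7, 4 of 9, 3 of 8 and 2 of 7 genes above it, with 0 called on 8 or 7 arrays.

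Fibroblast markers did move. Of 15 markers 5 fell and 1 rose on 8 arrays, where 2.73% of all genes were called lower and 4.52% in either direction. On 7 arrays 7 fell and 1 rose, where 7.57% of all genes were called lower and 12.8% in either direction. The list mean was 9.24 to 9.37 in Daxx arrays and 9.59 to 9.63 in vector arrays. Their part in the lower Saa3, Ptx3 and Lcn2 signals was not tested. In cells measured in bulk, fewer cells with a transcript and less of it per cell cannot be told apart.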

How the data were processed

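Total RNA of 8 samples was measured on Affymetrix arrays after linear amplification. The deposited values are log2 signals made by the authors with Affymetrix Expression Console and RMA, per the submitters' processing notes. RMA subtracts background, sets arrays to 1 distribution and compresses differences near background. Their versions are not known here. Of 35556 probe sets 21789 had 1 gene symbol, which gave 19938 genes by the highest mean, of which 19856 matched the GRCm38.p6 gene table.

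The log2 values were fitted with limma 3.58.1 in R 4.3.3 over all genes, as Daxx against vector and as 3 groups with 1 spread. The code was tested on simulated data. The number of arrays limits the precision. Members, gene lists and tests were chosen with earlier results of these data known. Named genes were the members, Daxx, up to 6 called genes per list (lowest adjusted p first), and those most like a member (5 for Saa3, 2 for each other, without predicted and olfactory receptor genes). Other genes are named with values as relatives, partners or neighbours. Alternatives covered each array left out, a filter on dim genes, normalization, probe sets, array weights, the prior and a replicate block. Promoter sequences came from RefSeq.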

Additional observations from a re-analysis of the deposited data

Results flagged for a closer look

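Vector replicate 2 stood apart from the other vector arrays for Lcn2. Its signal was 9.92, while the other vector arrays read 10.39 to 10.48, and the gap made up 0.831 of the range of the 4 arrays, just above Dixon's 95% critical value for 4 samples. Such a gap was looked for in 6 genes and Daxx, in the Daxx and the vector arrays, which makes 14 looks. Chance gives about 1 in 20 for each look, so 1 gap among 14 looks is not unusual.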

How the results depend on the processing

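Saa3 and Ptx3 were lower in Daxx arrays and passed in all 15 alternatives. Their differences ran from -1.80 to -1.58 for Saa3 and from -0.82 to -0.75 for Ptx3. Saa3, Ptx3 and Lcn2 have 1 probe set each, so the mean over probe sets, 1 of the 15, could not change their values. Lcn2 was lower in all 15 (-0.73 to -0.48) and passed in 5: without vector replicate 2, with the filter on dim genes (adjusted p = 0.0309), quantile normalization again (0.0267), array weights (7.95e-05) and a trended and robust prior (0.0318). With the replicate number as a block, Daxx minus vector kept 2 members called, where 162 of 19938 genes were called. DaxxA minus vector and DaxxB minus vector had 0 members each. There 0 of all genes were called, so these counts say nothing about the members. That block left 1 other acute phase gene, 2 complement components, 0 cytokines and receptors and 0 binding partners called. Only vector arrays carry the numbers 3 and 4, so in this fit the vector side rests on vector replicates 1 and 2 alone. Same-numbered arrays of different groups had deviations correlated at 0.0238 to 0.162, all positive. In a group of 2 arrays the deviations mirror each other, so these values cannot decide whether the numbers pair the samples. Array weights gave 6 other acute phase genes, 2 complement regulators, 8 cytokines and receptors, 5 transcription factors, 3 binding partners and 2 negative acute phase genes. With these weights 3231 of 19938 genes were called, against 902 in the main fit. Negative acute phase genes numbered 2 also with the filter, quantile normalization and the trended prior, and transcription factors 3 with quantile normalization. These settings called 1334 of 12974 genes (filter), 1428 of 19938 (quantile normalization) and 1287 of 19938 (trended prior).

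Leaving out 1 array at a time gave 2 to 3 members for Daxx minus vector. With 1 vector array left out it gave 2 to 3 for DaxxA minus vector and 2 to 4 for DaxxB minus vector (4 without vector replicate 2). DaxxA minus DaxxB then had 0. Fits left with 1 DaxxA or 1 DaxxB array are not counted in the comparisons that keep DaxxA and DaxxB apart. For Daxx minus vector with 1 array left out, the lists had 2 to 5 other acute phase genes, 3 to 5 complement components and 1 to 2 complement regulators. They had 3 to 8 cytokines and receptors, 1 to 5 transcription factors, 0 to 2 binding partners and 1 to 2 negative acute phase genes. The highest count of each list came without vector replicate 2, where 12.8% of all genes were called. With any other array left out, 446 to 559 of 19938 genes were called.

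The sign was not settled for the dim genes. For Cfb it ran from -0.05 to 0.11 with 1 array left out, and for Serping1 it ran from -0.05 to 0.13. Both were -0.09 with the replicate block, where the vector side rests on vector replicates 1 and 2 alone. Hp ran from -0.15 to 0.04 and was 0.02 after quantile normalization. DaxxA minus DaxxB ran from -0.11 to 0.11 for Ptx3, from -0.16 to 0.06 for Serping1 and from -0.11 to 0.01 for Hp. After quantile normalization it was 0.03 for Serping1 and 0.05 for Hp, and with equal array medians 0.00 and 0.01. Over all genes Daxx minus vector called 902, against 446 to 559 with any 1 array other than vector replicate 2 left out, 2558 without that array, 162 with the replicate block, 1428 after quantile normalization and 3231 with array weights. The calls ran from 0 to 2718 for DaxxA minus vector, from 0 to 4252 for DaxxB minus vector and from 0 to 485 for DaxxA minus DaxxB. Signal close to background limits what can be said of Hp, Cfb and Serping1.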
